A study of Mus musculus with 8 samples.

Results

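The genes described here encode myosins and actin-binding proteins of the cytoskeleton, in 8 families. They were taken by gene symbol: Myo, Myh, Actn, Ablim, Pdlim, Tpm or Amotl followed by a number, and the filamin symbols that begin with Fln. In all, 55 of the 18040 genes listed for ND or HFD mice were members, 53 of 17740 in the HFD table and 50 of 16436 in the ND table, with 48 in both. The unconventional myosins (Myo) counted 22 members and the myosin heavy chains (Myh) 11. There were 6 members of Pdlim, 4 of Actn, 4 of Tpm, 3 of Ablim, 3 of Fln and 2 of Amotl.

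RNA-seq was performed on macrophages sorted by FACS from the epididymal white adipose tissue (eWAT) of male WT C57BL/6J mice. Adhesion-related macrophages (ARMs) came from the floating adipocyte layer after collagenase digestion, and the comparison cells were the macrophages of the stromal vascular fraction (SMs, named NARM in the sample titles). The comparison asks how macrophages attached to adipocytes differ from those that are not. Per the study's methods, the adipocyte layer was then vortexed with beads until the adipocytes lysed. The stromal vascular fraction was filtered without that step, so attachment and this handling cannot be told apart here. From 6 weeks of age ND mice ate a normal diet and HFD mice a high-fat diet, the latter for 8 weeks. No mouse carried any other allele or received any other agent. With 2 diets and 2 cell types there were 4 groups of 2 libraries, and the cells of 6 mice on HFD or 10 on ND went into a library. A p-value here measures the spread between such pools. With 2 libraries against 2, an exact two-sided permutation test of a single value cannot give a p under 0.333, so each gene was tested in a model fitted across all genes.

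The libraries were of similar depth. The HFD ARM libraries held 18415520 and 18288775 counts and the HFD SM libraries 19040133 and 18992793. The ND ARM libraries held 16319038 and 14508824 counts and the ND SM libraries 14861075 and 15833762. The members together took 0.553% and 0.551% of the counts in HFD ARMs, 0.502% and 0.542% in HFD SMs, 0.59% and 0.601% in ND ARMs, and 0.6% and 0.58% in ND SMs. In bulk libraries such as these, fewer cells of a type and less RNA per cell cannot be told apart.

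Myosins are motors that pull on actin filaments: the Myh chains assemble into bipolar filaments that contract, while the Myo proteins mostly work alone, carrying cargo or tethering membrane to actin. Tropomyosins (Tpm) lie along the filament and set which motors and severing proteins reach it. Alpha-actinins (Actn) and filamins (Fln) crosslink filaments, the LIM-domain proteins of the Ablim and Pdlim families dock on actin or on alpha-actinin, and angiomotin-like proteins (Amotl) sit at cell junctions and bind the Hippo pathway coactivator YAP. Macrophages use these proteins to spread, to build podosomes, which are actin-rich adhesion sites, and to engulf particles.

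The sorted label was first set against the macrophage markers. The 12 genes of the macrophage list summed to an FPKM (fragments per kilobase of transcript, scaled to the depth of the library) of 11788 and 11370 in HFD ARMs, 12015 and 11500 in HFD SMs, 13511 and 13985 in ND ARMs, and 13797 and 13698 in ND SMs. Lyz2, the macrophage lysozyme, was the most abundant, with a mean FPKM of 5329. Macrophage transcripts were thus high in every library and similar in both cell types. By edgeR's quasi-likelihood test 0 of the 12 were called in either diet, with 4 at an unadjusted p under 0.05 in HFD mice and 2 in ND mice, and DESeq2 called 0. Transcripts of other cell types were also present, some of them higher in ARMs, as given after the members' values.

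In 5 of the 8 families a single member made up most of the level. Tpm3, a tropomyosin of non-muscle filaments, had the highest mean FPKM over the 8 libraries, 454, which was 75.9% of the Tpm sum and 33.4% of the sum over all members. Flna, the main non-muscle filamin, had 116 (86.6% of its family), Myh9, the heavy chain of non-muscle myosin IIA, 70.9 (86.6%), and Actn4, a non-muscle alpha-actinin, 57 (85.2%). The Pdlim family was led by Pdlim1, an alpha-actinin partner, at 60.7 (40.9%). Among the Myo genes the levels were spread more evenly: Myo5a, a carrier of organelles, led with 64.9 (20.2%). The least abundant families were Ablim, led by Ablim1 with 1.69 (47.9%), and Amotl, led by Amotl2 with 3.36 (81.6%).

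The FPKM summed over each family was higher in ARMs for 5 families in HFD mice and lower for 1. The Ablim sum was 6.48 and 6.27 in HFD ARMs against 3.12 and 2.39 in HFD SMs, and 2.1 and 4.13 in ND ARMs against 1.6 and 2.22 in ND SMs. The Actn sum was 76.7 and 78.6 against 59.9 and 63.6 in HFD mice and 64.6 and 70 against 63.8 and 58.2 in ND mice. The Amotl sum was 5.09 and 4.69 against 4.53 and 4.22 in HFD mice, and 3.29 and 5.41 against 2.71 and 3.01 in ND mice. These 3 sums were higher in both ARM libraries than in both SM libraries of the same diet, except that the ND Ablim sums overlapped. The Myo sum was 318 and 319 against 285 and 308 in HFD mice, which did not overlap, and 327 and 350 against 332 and 329 in ND mice, which did. The Tpm sum overlapped in both diets, with 530 and 562 against 556 and 544 in HFD mice and 665 and 652 against 653 and 629 in ND mice. The Myh sum was 91 and 87.7 against 76.8 and 85.5 in HFD mice, with no overlap, and 75.9 and 86.8 against 72.3 and 78.8 in ND mice, with overlap. The Pdlim sum was lower in ARMs in HFD mice, 161 and 160 against 164 and 170, and overlapped in ND mice, 137 and 132 against 133 and 133. The Fln sum overlapped in both diets, with 123 and 123 against 102 and 126 in HFD mice and 147 and 143 against 166 and 141 in ND mice. Over all members the sum ranged from 1252 in HFD SM replicate 1 to 1443 in ND ARM replicate 2.

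Some members were nearly absent, among them muscle heavy chains. Flnc and Tpm2, also known from muscle, were not, with at least 22 and 31 counts in every library. Myh1, Myh2, Myh13 and Myh7, heavy chains of skeletal and cardiac muscle, and Myo16 and Myo18b had 3 counts or fewer in every library of the tables that list them. Myh3, Myh2, Myh1 and Myh13 are neighbours on chromosome 11, between 67078273 and 67371587 of GRCm38.p6. A further 8 members were below the filter on low counts in both diets with no more than 14 counts in any library, and these included Actn2 and Actn3, the alpha-actinins of muscle. A count of 3 was taken as the floor of detection, and floors and counts at this level cover counting error only. How reads shared by close paralogs or processed copies were divided is not given in the sources used here, so values of the muscle heavy chains and of Tpm3 are uncertain to that extent.

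In HFD mice, members of 5 families were higher in ARMs than in SMs and none was called lower. Of the 41 members that passed the filter, 9 were called higher. A call needed an edgeR adjusted p under 0.05 (quasi-likelihood test, Benjamini-Hochberg adjustment over all 13337 genes tested) together with a fold change above 1.5. The 9 made up 22% of the members tested, beside 4.46% of all genes tested. Among them were Ablim1, Ablim3, Actn1, Amotl1, Myh15, Myo10, Myo1d and Myo6. By the same edgeR test 0 members were called lower, beside 0.292% of all genes, with 2 lower at an unadjusted p under 0.05, and DESeq2 also called 0. Both ARM libraries lay above both SM libraries for 20 of the 41 members (26.3% of all genes) and below them for 4 (26.4%). The median log2 fold change was 0.15 over the members and -0.01 over all genes tested.

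Without HFD ARM replicate 1 the log2 fold change went from 0.73 (SE 0.11) to 0.70 (SE 0.15) for Myo10. For Myh15 it went from 1.88 (SE 0.33) to 1.95 (SE 0.42), and for Myo6 from 1.38 to 1.10. The HFD count fell when either ARM library was left out. Without HFD ARM replicate 1 it was 3 (Ablim1, Ablim3 and Actn1), and without HFD ARM replicate 2 it was also 3, with Ablim1 and Ablim3 among them. The members no longer called had log2 fold changes from 0.56 to 1.95 in these fits. Without HFD SM replicate 1 and without HFD SM replicate 2 the count was 8, and the median over the members was 0.23 without the latter. Ablim1 and Ablim3 were called whichever library was left out. With no filter on low counts the number called was 3 (Ablim1, Ablim3 and Actn1, with edgeR adjusted p from 0.0578 to 0.114 for the other 6), and in 1 fit of all 8 libraries it was 5, with Myo1d besides.

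**Figure D1:**
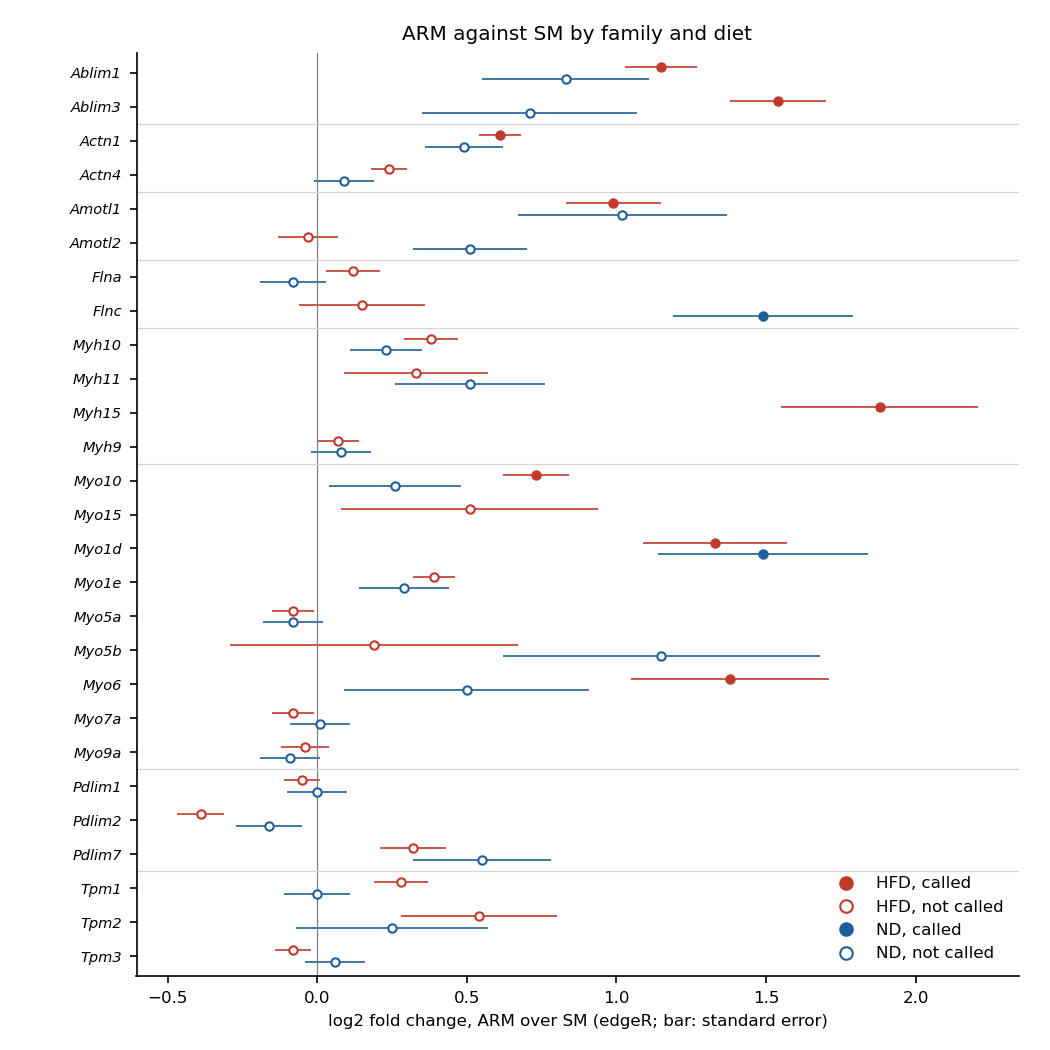
Log2 fold change of ARMs over SMs for the members named in the text, grouped by family, in HFD mice (red) and ND mice (blue). Points are edgeR estimates, bars are standard errors (n = 2 libraries per group), and filled points passed both thresholds. Filled points lie to the right of 0 in both diets, and the Pdlim, Tpm and Fln members shown for HFD mice are all open.

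The Ablim genes gave the clearest difference. Ablim1 and Ablim3 encode actin-binding LIM proteins, which link actin filaments to LIM-domain partners. Ablim3 had an FPKM of 2.95 and 3.21 in the HFD ARM libraries and 1.28 and 0.89 in the SM libraries, a log2 fold change of 1.54 (SE 0.16, 2.9-fold, edgeR adjusted p = 0.000275). Ablim1, at chr19:57032733-57315344 (GRCm38.p6), had 3.19 and 2.77 against 1.42 and 1.23, a log2 fold change of 1.15 (SE 0.12, 2.21-fold, edgeR adjusted p = 0.000275). For both genes each ARM library lay above each SM library.

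Actn1 was the only called member of HFD mice at a mean FPKM above 10. It encodes the alpha-actinin of stress fibres and focal adhesions and lies at chr12:80167542-80260420. Its FPKM was 13.2 and 14.5 in HFD ARMs against 8.7 and 9 in SMs, which did not overlap, and the log2 fold change was 0.61 (SE 0.07, 1.53-fold, edgeR adjusted p = 0.000733). This fold is close to the threshold, and without HFD ARM replicate 2 or HFD SM replicate 1 the log2 fold change was 0.56 or 0.57, below it. Actn4, several times more abundant, had 63.4 and 63.9 against 50.9 and 54.5, a log2 fold change of 0.24 (SE 0.06, edgeR adjusted p = 0.0355). Its groups did not overlap either, but the difference was smaller than the fold threshold.

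Among the 17 Myo genes tested in HFD mice, 4 were called higher and 0 lower, and the median log2 fold change was 0.12. Myo1d (chr11:80482126-80780055) is a short-tailed class I myosin that links membranes to actin. It had an FPKM of 1.07 and 0.88 in HFD ARMs against 0.4 and 0.3 in SMs, a log2 fold change of 1.33 (SE 0.24, 2.51-fold, edgeR adjusted p = 0.00747). Myo10, the motor found at the tips of filopodia, had 2.09 and 2.19 against 1.19 and 1.41, a log2 fold change of 0.73 (SE 0.11, 1.66-fold, edgeR adjusted p = 0.00299). In both genes the ARM libraries all lay above the SM libraries. Myo6, which moves towards the pointed end of the filament, was scarce. It had 47 and 33 counts in HFD ARMs against 16 and 15 in SMs, or an FPKM of 0.32 and 0.23 against 0.11 and 0.11, a log2 fold change of 1.38 (SE 0.33, 2.61-fold, edgeR adjusted p = 0.028). Its groups did not overlap, yet its call was lost under 7 of the alternative fits, more than for any other called member. Beside the fits without a library these were DESeq2 (DESeq2 adjusted p = 0.198), no filter (edgeR adjusted p = 0.114) and 1 fit of all 8 libraries (edgeR adjusted p = 0.0585).

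Single libraries bore on these Myo calls. Without HFD ARM replicate 1 the edgeR adjusted p was 0.104 for Myo1d, 0.0616 for Myo10 and 0.252 for Myo6. Without HFD ARM replicate 2 it was 0.0828 for Myo1d, 0.0598 for Myo10 and 0.0973 for Myo6. Without HFD SM replicate 1 or replicate 2 it was 0.0526 or 0.0769 for Myo6. The direction was the same in each of these fits.

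The most abundant Myo gene overlapped between the cell types. Myo5a had an FPKM of 51.8 and 45.9 in HFD ARMs against 51.7 and 49.7 in SMs, overlapping groups with a log2 fold change of -0.08 (SE 0.07). Its sign turned without HFD ARM replicate 2 (0.03). Myo1e, a long-tailed class I myosin of endocytic and adhesion sites, had 21.1 and 22.7 against 15.7 and 17.2. These groups did not overlap, and the log2 fold change of 0.39 (SE 0.07, edgeR adjusted p = 0.00873) was under the fold threshold. Myo15, known from the stereocilia of the inner ear, had only 13 and 18 counts in HFD ARMs against 13 and 9 in SMs, and its log2 fold change of 0.51 (SE 0.43) was not called. The other 10 Myo genes tested in HFD mice had log2 fold changes between -0.08 and 0.19.

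Of the 4 Myh genes tested in HFD mice, Myh15 was called. Myh15 encodes a heavy chain related to the sarcomeric myosins. Its counts were 43 and 48 in HFD ARMs against 10 and 15 in SMs, an FPKM of 0.33 and 0.38 against 0.07 and 0.11. The groups did not overlap, and the log2 fold change was 1.88 (SE 0.33, 3.67-fold, edgeR adjusted p = 0.00596), the largest among the members tested in either diet. The call was lost without HFD ARM replicate 1 (edgeR adjusted p = 0.0654) or HFD ARM replicate 2 (edgeR adjusted p = 0.107). The non-muscle heavy chains that carry most of the family's RNA differed less. Myh9 had 78.4 and 76.7 against 68.4 and 76.3, a log2 fold change of 0.07 (SE 0.07). Myh10, the heavy chain of non-muscle myosin IIB, had 10.2 and 9.26 against 6.72 and 8.01, a log2 fold change of 0.38 (SE 0.09, edgeR adjusted p = 0.0302). For Myh10 the ARM libraries lay above the SM libraries by less than the fold threshold, while for Myh9 replicate 2 of both cell types was nearly equal, and its log2 fold change was 0.00 without HFD SM replicate 1. Myh11, the smooth muscle heavy chain, overlapped, with 1.85 and 1.28 against 1.62 and 0.96, and was called only without HFD SM replicate 1 (log2 fold change 0.77, edgeR adjusted p = 0.0241).

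Of the Amotl pair, Amotl1 was called in HFD mice. It had an FPKM of 1.08 and 1.07 in ARM libraries against 0.6 and 0.47 in SM libraries, a log2 fold change of 0.99 (SE 0.16, 1.99-fold, edgeR adjusted p = 0.00384). Its groups did not overlap, and the call was lost without HFD ARM replicate 1 (edgeR adjusted p = 0.0633) or HFD ARM replicate 2 (edgeR adjusted p = 0.0654). Amotl2 had 4.01 and 3.62 against 3.93 and 3.75, which overlapped, with a log2 fold change of -0.03 (SE 0.10) that was 0.06 without HFD ARM replicate 2 and 0.00 without HFD SM replicate 1.

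No member of the Pdlim, Tpm and Fln families was called in HFD mice by edgeR or by DESeq2, and 3 of 6 Pdlim genes, 1 of 4 Tpm genes and 0 of 3 Fln genes had an unadjusted edgeR p under 0.05. Pdlim2, which binds alpha-actinin and also promotes the turnover of NF-kB p65, was the member with the lowest fold change. Its FPKM was 19.9 and 21.2 in HFD ARMs against 25.2 and 27.5 in SMs, a log2 fold change of -0.39 (SE 0.08, edgeR adjusted p = 0.011). In ND mice it was 20.7 and 19.5 against 23.1 and 22.1, a log2 fold change of -0.16 (SE 0.11, edgeR adjusted p = 0.603). In each diet the ARM libraries were both lower than the SM libraries, within the fold threshold. Pdlim1 had 72.5 and 74.2 against 74.5 and 74.6 in HFD mice, nearly equal, with a log2 fold change of -0.05 (SE 0.06). Tpm2, a tropomyosin of muscle and contractile cells, had 2.31 and 2.47 against 1.97 and 1.19, a log2 fold change of 0.54 (SE 0.26) that was not called though the groups did not overlap. Tpm3 had 398 and 417 against 429 and 423, a log2 fold change of -0.08 (SE 0.06), and Flna had 105 and 106 against 86.1 and 105, a log2 fold change of 0.12 (SE 0.09). Tpm1 had 23.2 and 25.2 against 21.4 and 17.8 (0.28, SE 0.09), and the remaining Pdlim, Tpm and Fln genes tested had log2 fold changes between -0.15 and 0.32. For Flna, HFD SM replicate 1 was the lowest library, and without it the log2 fold change was -0.02.

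In ND mice, 3 of the 37 members tested were called higher in ARMs by edgeR's quasi-likelihood test, 8.11% of the members beside 3.55% of all 12441 genes tested. Flnc and Myo1d were among them. By edgeR 0 members were called lower, beside 0.129% of all genes, with 0 lower at an unadjusted p under 0.05, and DESeq2 called 1 higher (Flnc) and 0 lower. Both ARM libraries lay above both SM libraries for 14 members (21.2% of all genes) and below them for 3 (22.8%). The median log2 fold change was 0.14 over the members and -0.02 over all genes tested. Replicates of ND mice differed more than those of HFD mice: the biological coefficient of variation that edgeR fitted was 8.61% against 5.55%.

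Myo1d was thus called in both diets. In ND mice it had an FPKM of 0.49 and 0.84 in ARM libraries against 0.23 and 0.21 in SM libraries, a log2 fold change of 1.49 (SE 0.35, 2.8-fold, edgeR adjusted p = 0.0227). Its groups did not overlap, and DESeq2 did not call it (DESeq2 adjusted p = 0.144). Flnc, the filamin of muscle, which binds at Z-discs and at sites of strained actin, lies at chr6:29433153-29461889. It had 62 and 70 counts in ND ARMs against 22 and 25 in SMs, an FPKM of 0.42 and 0.54 against 0.16 and 0.18. The groups were well separated, and the log2 fold change was 1.49 (SE 0.30, 2.81-fold, edgeR adjusted p = 0.00815).

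The ND calls were lost when either of 2 libraries was left out. Without ND ARM replicate 2 the count was 0, with log2 fold changes of 1.30 for Flnc and 1.16 for Myo1d and edgeR adjusted p of 0.0976 and 0.255. Without ND SM replicate 1 it was also 0, with 1.44 and 1.57 and edgeR adjusted p of 0.0806 and 0.151. In these fits 0 members were called lower, and the direction of both genes was the same. Without ND ARM replicate 1 the count was 9, with Ablim1, Ablim3, Actn1, Amotl1, Amotl2 and Myh15 added. Without ND SM replicate 2 it was 4, with Ablim1 and Amotl1 added and Myo1d lost (edgeR adjusted p = 0.155).

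**Figure D2:**
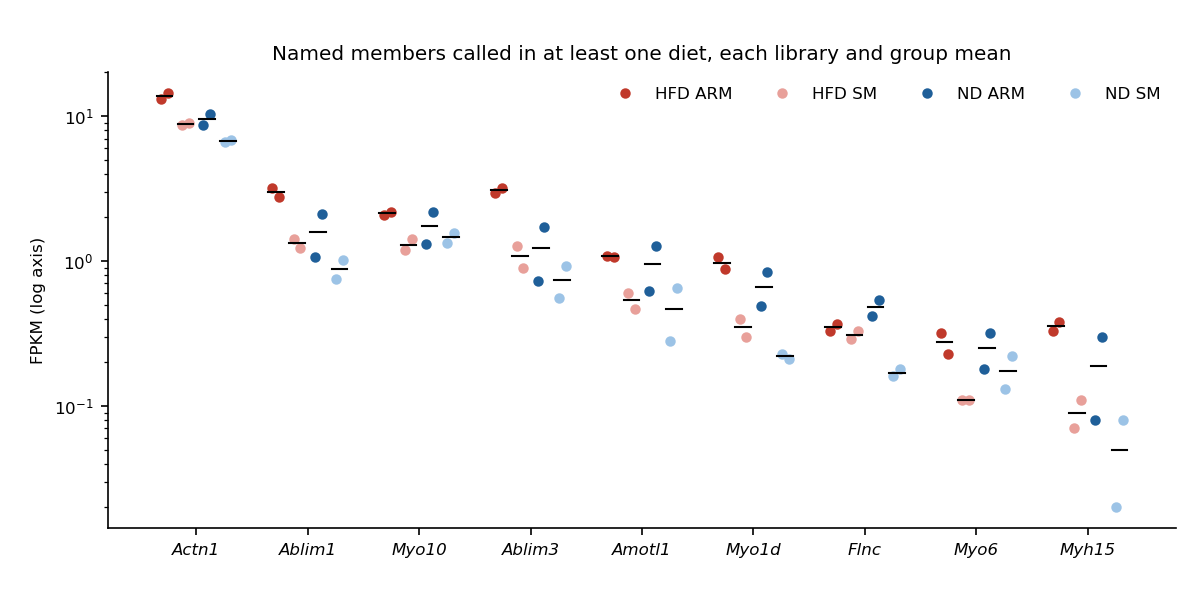
FPKM (log axis) of 9 members called in at least 1 diet, in each of the 8 libraries, with a black line at the mean of each group of 2. In HFD mice the ARM points (dark red) lie above the SM points (light red) for the 8 genes shown that were called there, and in ND mice the ARM points (dark blue) of several genes are spread wide.

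The members called in HFD mice but not in ND mice had values in ND mice as follows. Ablim1 had an FPKM of 1.06 and 2.12 in ND ARMs against 0.75 and 1.01 in SMs (log2 fold change 0.83, SE 0.28, edgeR adjusted p = 0.122), with no overlap. Ablim3 had 0.73 and 1.73 against 0.56 and 0.93 (0.71, SE 0.36, edgeR adjusted p = 0.384), which overlapped. Amotl1 also overlapped, with 0.62 and 1.28 against 0.28 and 0.65 (1.02, SE 0.35, edgeR adjusted p = 0.137). In a fit with the replicate number as a block, Ablim1, Ablim3 and Amotl1 were called (log2 fold changes 0.81, 0.70 and 1.05). Beyond that number, the labels do not say whether these libraries share mice. Actn1 had 8.68 and 10.3 against 6.68 and 6.81 and did not overlap, with a log2 fold change of 0.49 (SE 0.13, edgeR adjusted p = 0.0337) under the fold threshold. Myo10 had 1.31 and 2.19 against 1.34 and 1.57, and Myo6 had 0.18 and 0.32 against 0.13 and 0.22, both overlapping, with log2 fold changes of 0.26 (SE 0.22) and 0.50 (SE 0.41). Myh15, with 8 and 28 counts against 2 and 9, was below the filter in ND mice and was not tested. In ND ARM replicate 2 each of these 7 genes was higher than in ND ARM replicate 1.

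Removing that library changed several of them. Without ND ARM replicate 2 the ND log2 fold change was 0.24 for Ablim1, -0.01 for Ablim3, 0.40 for Amotl1 and -0.20 for Myo10. Without ND ARM replicate 1 it was 1.25 for Ablim1, 1.21 for Ablim3, 0.61 for Actn1 and 1.47 for Amotl1, each past both thresholds. Without ND SM replicate 2 it was 1.05 for Ablim1 and 1.77 for Amotl1, again past both.

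Among the other members in ND mice, Myo5b and Pdlim7 had the largest differences that were not called. Myo5b, a motor of recycling endosomes, had 12 and 17 counts in ND ARMs against 6 and 7 in SMs, a log2 fold change of 1.15 (SE 0.53, edgeR adjusted p = 0.317). Pdlim7, a LIM protein also known as enigma, had an FPKM of 3.39 and 3.65 against 2.29 and 2.48, a log2 fold change of 0.55 (SE 0.23, edgeR adjusted p = 0.249), and in HFD mice 9.98 and 11.4 against 8.16 and 8.94 (0.32, SE 0.11, edgeR adjusted p = 0.103). In both genes the ND groups did not overlap. Amotl2 had 2.67 and 4.13 against 2.43 and 2.36 (0.51, SE 0.19, edgeR adjusted p = 0.198), and it was called without ND ARM replicate 1, at 0.79. None of the abundant members was called in ND mice by edgeR or DESeq2: the log2 fold change was -0.08 for Flna (130 and 126 against 148 and 123), 0.08 for Myh9 (64.4 and 73.1 against 62.9 and 67.2), -0.08 for Myo5a (81.6 and 74 against 81.8 and 83), 0.00 for Pdlim1 (45.7 and 49.2 against 47 and 48.1), 0.06 for Tpm3 (503 and 497 against 491 and 477) and 0.09 for Actn4 (55.8 and 59.4 against 56.9 and 51.2). For Tpm3 both ARM libraries lay above both SM libraries, for Myo5a below, and the other 4 genes overlapped. The sign turned for Flna without ND SM replicate 1 (0.05) and for Myh9 without ND ARM replicate 2 (-0.02), and Pdlim1 was at 0.05 without ND ARM replicate 1 and 0.02 without ND SM replicate 2.

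Calls were counted separately for abundant and scarce members. At a mean FPKM of 10 or more in the diet's 4 libraries, a split chosen after the values were seen, 1 of 20 members was called higher in HFD mice (5%) beside 1.58% of 5457 genes, and by edgeR 0 of 21 in ND mice (0 at an unadjusted p under 0.05, and 0 by DESeq2) beside 1.46% of 5760 genes. Below that level 8 of 21 members tested were called in HFD mice (38.1%) beside 6.46% of 7880 genes, and 3 of 16 in ND mice (18.8%) beside 5.36% of 6681 genes. The median log2 fold change of the scarce members was 0.38 in HFD mice and 0.53 in ND mice, beside 0.02 and 0.01 for scarce genes at large, and that of the abundant members was 0.08 and 0.04, beside -0.03 and -0.03. Scarce members pass the filter more easily where they are high, so these counts over tested members describe the tables and are no support for a direction.

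**Figure D3:**
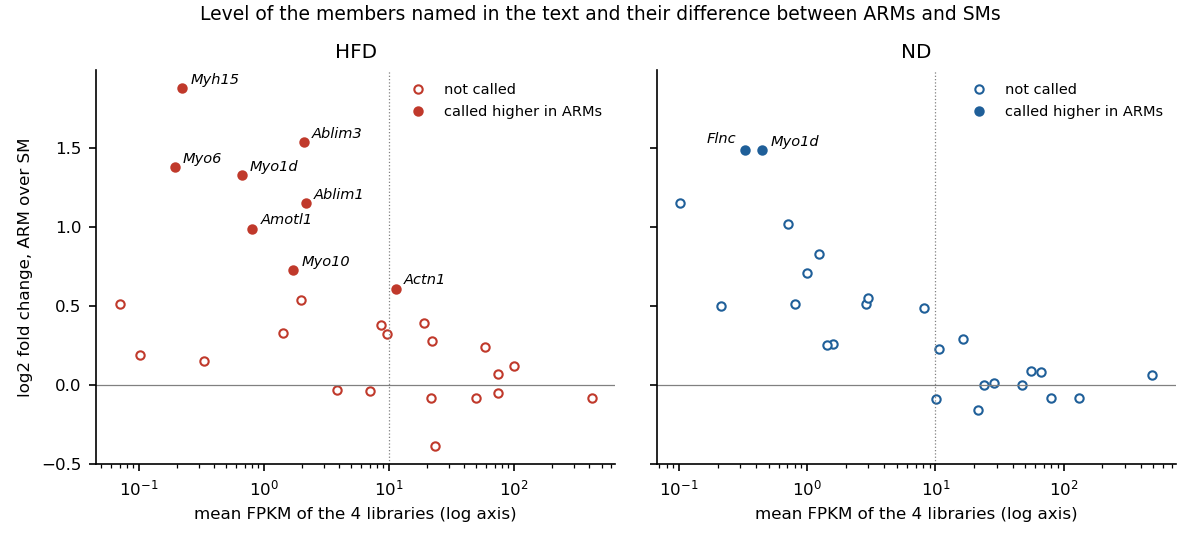
Log2 fold change of ARMs over SMs (vertical) against the mean FPKM of the 4 libraries of that diet (horizontal, log axis) for members tested and named in the text, in HFD mice (left) and ND mice (right). Filled points were called higher in ARMs, and the dotted line marks an FPKM of 10. To its right Actn1 in HFD mice is the only filled point, and Myo1e (0.39) and Pdlim2 (-0.39) are the open points farthest from 0.

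Whether the ARM against SM difference itself differed between diets was tested in 1 fit of all 8 libraries. By edgeR's quasi-likelihood test 0 of 41 members passed at an adjusted p under 0.05, beside 0.165% of 13358 genes, with 2 members at an unadjusted p under 0.05, and DESeq2 passed 0 of 48 with 1 at an unadjusted p under 0.05. The lowest edgeR adjusted p was 0.188, for Flnc. Its FPKM in HFD mice was 0.33 and 0.37 in ARM libraries against 0.29 and 0.33 in SM libraries, a log2 fold change of 0.15 (SE 0.21), so the difference between diets, HFD minus ND, was -1.36 (SE 0.34). The Flnc levels of ND ARMs lay above those of the other 3 groups, and those of ND SMs below. Amotl2 was the other member at an unadjusted p under 0.05, with a difference of -0.55 (edgeR adjusted p = 0.6).

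For the remaining members called in a single diet, the difference between diets did not pass either. On the log2 scale it was 0.31 for Ablim1, 0.82 for Ablim3, 0.10 for Actn1, -0.04 for Amotl1, 0.46 for Myo10, 0.87 for Myo6 and 0.15 for Myh15, with edgeR adjusted p of 0.937, 0.754, 0.946, 0.996, 0.812, 0.814 and 0.992. For Myo1d, called in both diets, it was -0.17. A call in HFD mice alone is therefore not shown to be a difference between the diets.

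Levels in the 2 diets were compared as values only, because each diet has its own table and diet and table cannot be told apart. Of the 48 members in both tables, 11 (22.9%) had both HFD libraries above both ND libraries in ARMs and in SMs alike, beside 18.5% of the 16136 genes in both tables. In 9 (18.8%) they were below in both cell types, beside 30.1% of those genes. The largest ratio among members with a mean FPKM above 5 was that of Pdlim7, with a mean FPKM of 10.7 in HFD ARMs against 3.52 in ND ARMs (ratio 3.04) and 8.55 against 2.38 in SMs (ratio 3.58). The gene length implied by counts and FPKM was 0.89 times as long in the HFD table for this gene. Pdlim1 had 73.4 against 47.5 in ARMs and 74.6 against 47.6 in SMs (ratios 1.55 and 1.57). In the other direction, Myo5a had 48.8 against 77.8 in ARMs and 50.7 against 82.4 in SMs (ratios 0.628 and 0.615). Myo9a and Myo7a were chosen after their values were seen. Myo9a, a single-headed unconventional myosin, had 6.99 against 9.87 and 7.02 against 10.5, and Myo7a, a motor known from hair cells, 21.2 against 28.6 and 22 against 28.5. For these genes ARMs and SMs shared the direction and the replicates of a group lay close together.

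**Figure D4:**
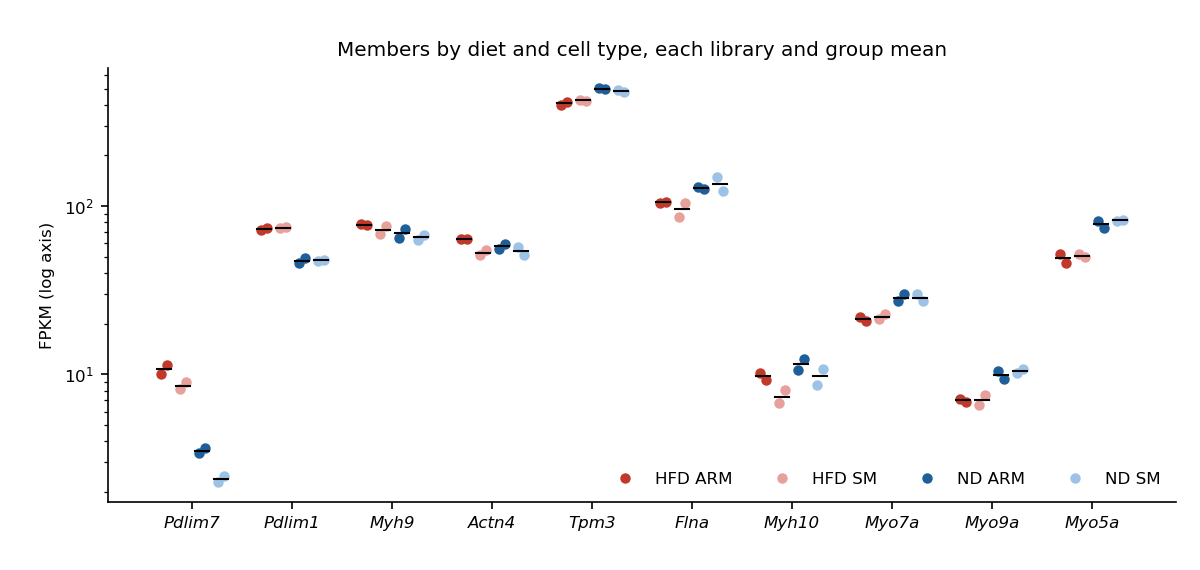
FPKM (log axis) of 10 members with a mean above 5, chosen after their values were seen, in each of the 8 libraries, with a black line at the mean of each group of 2. Pdlim7 and Pdlim1 are higher in HFD mice (red) and Flna, Myo7a, Myo9a and Myo5a in ND mice (blue), in ARMs and SMs alike. Diet and table cannot be told apart.

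Markers of other cell types moved with the called members. The adipocyte list summed to an FPKM of 650 and 722 in HFD ARMs against 253 and 212 in SMs, and 357 and 540 against 207 and 268 in ND mice. Its most abundant gene was Fabp4, a fatty acid carrier (mean FPKM 193), and 11 of 14 tested were called higher in HFD mice and 8 of 14 in ND mice, with medians of 2.32 and 1.24 on the log2 scale. The vascular endothelial list summed to 98 and 98 against 61.5 and 59.8 in HFD mice and 49.3 and 70.2 against 49.6 and 51.3 in ND mice. It was led by Eng, a TGF-beta coreceptor that macrophages also express (40.6), and 12 of 14 genes were called in HFD mice and 1 of 14 in ND mice (medians 1.46 and 0.75). The pericyte and smooth muscle list summed to 43.9 and 40.1 against 27.1 and 17.8, and 14.8 and 23 against 13.6 and 11.3. It was led by Rgs5, a pericyte regulator of G-protein signalling (5.4), and 6 of 13 were called in HFD mice and 3 of 11 in ND mice (medians 0.99 and 1.06). The fibroblast and progenitor list summed to 371 and 434 against 277 and 267, and 439 and 657 against 196 and 248, led by Gsn, which severs actin and is also made by macrophages (175), with 6 of 13 called in HFD mice and 11 of 13 in ND mice (medians 0.57 and 1.31). In HFD mice 4 of its 13 genes had a log2 fold change below 0, and for 2 of these the ARM libraries were both below the SM libraries at an unadjusted edgeR p under 0.05. The sums of these 4 lists were higher in both ARM libraries than in both SM libraries of each diet, except the endothelial list in ND mice.

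The mesothelial list summed to 19.5 and 14.3 in HFD ARMs against 17.4 and 9.03 in SMs, which overlapped, and 21.3 and 27 against 6.1 and 7.93 in ND mice, which did not. It was led by Upk3b, a uroplakin (4.77), with 0 of 10 called by edgeR in HFD mice (1 at an unadjusted p under 0.05, 0 by DESeq2) and 8 of 10 in ND mice. Of the lymphatic endothelial list 3 of 7 were called in HFD mice and 4 of 7 in ND mice, but its sum was nearly all Lyve1, a hyaluronan receptor that resident macrophages also carry (98.7%). The sum was 468 and 410 against 652 and 616 in HFD mice and 640 and 585 against 738 and 632 in ND mice. Cidea of the adipocyte list and Cnn1 of the smooth muscle list had 3 counts or fewer in every HFD library. They are not listed for ND mice, and no marker in these lists was at 0 throughout. The part of these cell types in the members' differences was not tested.

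The called markers that differed most are given here, but other markers of the same lists did not follow them. In HFD and ND mice log2 fold changes were 0.55 and 0.25 for Acta2 and 0.22 and 0.18 for Tagln of the pericyte list. They were -0.17 and 0.07 for Prox1 of the lymphatic list, and all of these overlapped between the cell types. Lyve1 was lower in both HFD ARM libraries (-0.58, within the fold threshold) and overlapped in ND mice (-0.18). Log2 fold changes in HFD mice were 2.98 for Lep, 2.87 for Plin1 and 2.85 for Adipoq of the adipocyte list, 1.75 for Sox17, 1.74 for Robo4 and 1.73 for Emcn of the endothelial list, and 1.47 for Abcc9, 1.42 for Pdgfrb and 1.27 for Notch3 of the pericyte list. In ND mice it was 1.43 for Pdgfrb and 1.38 for Des of the pericyte list, and 1.90 for Col1a1, 1.69 for Col1a2 and 1.59 for Dcn of the fibroblast list. It was 2.12 for Lrrn4 and 2.09 for Msln of the mesothelial list. Krt8 of the mesothelial list had 36 and 33 counts in ND ARMs against 3 and 7 in SMs, and Adrb3 of the adipocyte list 21 and 24 against 3 and 7. Of the lymphatic list, Ccl21a had 42 and 42 counts in ND ARMs against 0 and 5 in SMs, Mmrn1 31 and 17 against 0 and 2, and Reln 18 and 14 against 0 and 2. The SM counts of these 5 genes were at or near the floor, so no fold is given. Mmrn1 was not called without ND SM replicate 1, nor Reln without it or without ND ARM replicate 2. Emcn was not called when either HFD ARM replicate was left out. Its lowest log2 fold change over all 4 fits, whether or not it was called, was 1.28. Pdgfrb in ND mice was not called without ND ARM replicate 2 (lowest 1.06), nor Krt8 without ND SM replicate 1. Of the fits that left out a library, Adrb3 and Des in ND mice were called only in that without ND ARM replicate 1 (edgeR adjusted p up to 0.457 and 0.505 in the other fits). Without ND ARM replicate 2 the number called in ND mice was 3 for the adipocyte, 0 for the pericyte, 0 for the endothelial, 10 for the fibroblast and 5 for the mesothelial list. Without ND SM replicate 1 it was 4, 2, 0, 10 and 6, and without ND ARM replicate 1 it was 9, 6, 8, 13 and 9. In HFD mice the fibroblast list had 0 called without HFD ARM replicate 2, and without HFD SM replicate 1 the pericyte list had 10 and the mesothelial list 4. The lymphatic list had 0 called higher in HFD mice without HFD ARM replicate 1 or HFD ARM replicate 2.

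**Figure D5:**
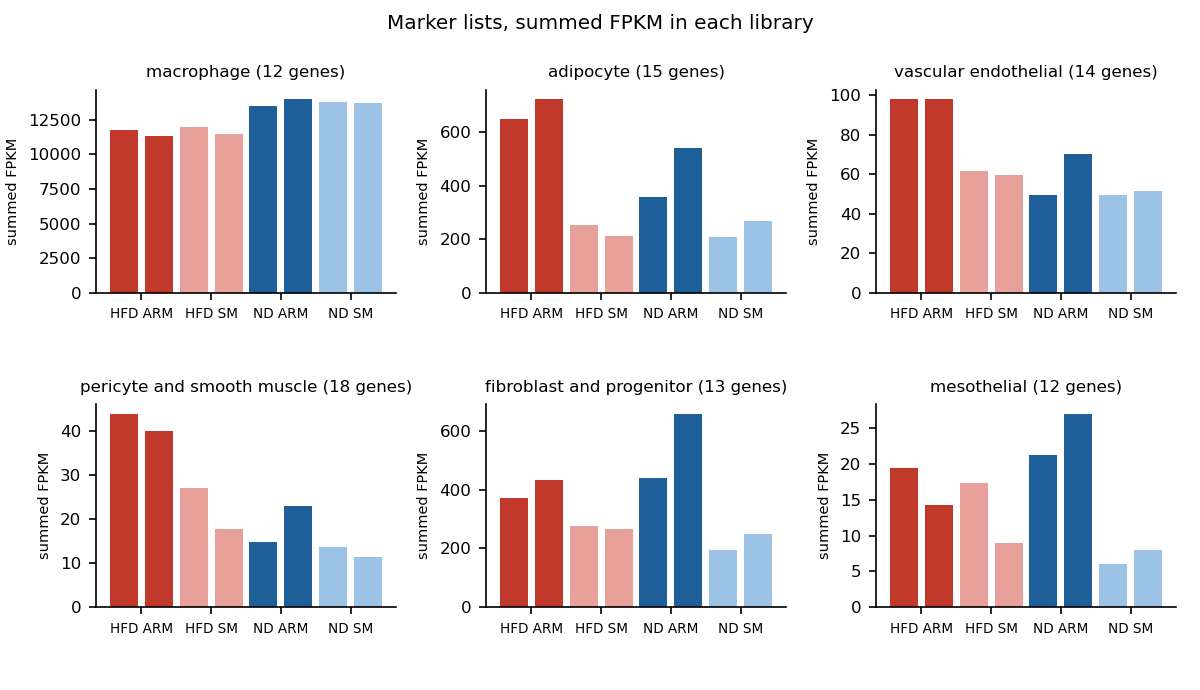
Summed FPKM of 6 marker lists in each library, from the left HFD ARM, HFD SM, ND ARM and ND SM with 2 libraries each; each panel has its own scale from 0. The macrophage sum is similar in the 8 libraries, while the adipocyte, pericyte and fibroblast sums are higher in ARMs than in SMs of the same diet.

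Other lists gave few calls. The skeletal muscle list stayed between 3.32 and 4.1 in every library, led by Tnnc2, a fast troponin C (0.704), and edgeR called 0 of 6 in HFD mice and 0 of 4 in ND mice (0 and 0 at an unadjusted p under 0.05, 0 and 0 by DESeq2), with 1 called in HFD mice without HFD SM replicate 2. T and NK cell markers summed to between 8.42 and 13.1, led by Cd2, an adhesion receptor (6.36), with 1 of 5 called higher in HFD mice, Cd4 at 0.88, though not without HFD ARM replicate 1, and 0 of 3 by edgeR in ND mice. B cell markers summed to between 3.66 and 5.85, led by Cd79b of the B cell receptor (2.69), with 0 of 3 called by edgeR in each diet. The dendritic cell list summed to 75.8 and 77.2 against 102 and 105 in HFD mice and 102 and 88.2 against 109 and 110 in ND mice. It was led by Cd209a, a lectin (87.9), with 0 of 6 called by edgeR in each diet and medians of -0.16 and -0.39. DESeq2 called 0 in these ND comparisons and in the HFD B cell and dendritic cell lists, and at an unadjusted edgeR p under 0.05 there were 1 B cell and 2 dendritic cell genes in HFD mice and 2 dendritic cell genes in ND mice. The neutrophil and mast cell sum was 10.9 and 13.2 against 7.34 and 7.15 in HFD mice and 9.68 and 30.2 against 56.1 and 41.7 in ND mice. In HFD mice its one called gene was Kit, the mast cell receptor (1.38), not called without HFD ARM replicate 1 or HFD ARM replicate 2. Cpa3 and Mcpt4 of the same list did not follow Kit in HFD mice. Cpa3 was lower in both HFD ARM libraries (-0.46) and Mcpt4 overlapped (-0.06). S100a8 and S100a9 were higher in both HFD ARM libraries (0.77 and 0.87), and none of these genes was called there. The list was led by S100a9, a neutrophil calcium-binding protein (14). With no library left out it was the only marker called lower, with a log2 fold change of -1.43 in ND mice (edgeR adjusted p = 0.0119). With a library left out its log2 fold change ranged from -2.27 to -0.87, and it was not called without ND ARM replicate 1. Some fits without a library called other markers of the lymphatic, fibroblast, dendritic cell and neutrophil lists lower.

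ND ARM replicate 2 stood apart in the same direction for members and markers. Between the ND ARM replicates, replicate 2 was higher in 28 of the 37 members (75.7%), beside 52% of all genes tested. For the members called in either diet it was higher in 9 of 9, by a median of 0.54 on the log2 scale. In the adipocyte, endothelial, pericyte, fibroblast and mesothelial lists the sum was likewise higher in ND ARM replicate 2 than in replicate 1. Among ND SMs, replicate 2 was higher in 8 of these 9 members (median 0.34), and in HFD ARMs in 4 of 10. The part of this library in the ND values is seen in the fits without it, given above.

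The partners of these families were taken from lists of related genes, of which the focal adhesion and Hippo lists had the highest shares called, beside 4.46% of all genes in HFD mice and 3.55% of all genes in ND mice. Of the myosin light chains and their regulators, edgeR called 1 of 14 in HFD mice (7.14%) and 0 of 13 in ND mice (3 at an unadjusted p under 0.05, 0 by DESeq2), with medians of -0.02 and 0.02. The called gene was Mylk, the kinase that activates myosin II, with an FPKM of 4.21 and 3.43 in HFD ARMs against 2.81 and 2.25 in SMs (log2 fold change 0.62, edgeR adjusted p = 0.0361). Mylk also stands in the smooth muscle list. Of the actins and SRF/MRTF partners, 1 of 14 was called in each diet (7.14%, medians 0.19 and 0.11). In HFD mice it was Cnn3, an actin-binding calponin, with 5.59 and 5.96 against 3.57 and 2.18 (0.98, edgeR adjusted p = 0.011). In ND mice it was Cald1, the caldesmon that restrains myosin on actin, with 4.04 and 5.52 against 3.14 and 3.17 (0.60, edgeR adjusted p = 0.0472). The ARM and SM libraries of these 3 genes did not overlap, and the cytoplasmic actin Actg1, at a mean FPKM of 1592, was level (-0.12 and 0.01).

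Of the focal adhesion scaffold list, 3 of 24 genes were called in HFD mice (12.5%), with a median of 0.05. Parva, the parvin that ties integrin-linked kinase to actin, had an FPKM of 2.16 and 2 in ARM libraries against 0.79 and 0.75 in SM libraries (log2 fold change 1.40, edgeR adjusted p = 0.000484). Fermt2, the kindlin that activates integrins in most non-blood cells, had 4.24 and 4.42 against 2.14 and 1.6 (1.18, edgeR adjusted p = 0.000761), and Lims2, a LIM adaptor of integrin-linked kinase, 4.05 and 3.45 against 2.33 and 1.19 (1.05, edgeR adjusted p = 0.0338). All 3 were separated between the cell types. In ND mice 2 of 24 were called (8.33%), also with a median of 0.05: Fermt2, with 2.16 and 3.79 against 1.04 and 1.41 (1.27, edgeR adjusted p = 0.0117), and Bcar1, the scaffold p130Cas, with 0.89 and 1.24 against 0.33 and 0.42 (1.47, edgeR adjusted p = 0.0229). Zyx, the most abundant of the list (134), was level.

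The Hippo list includes the coactivators that the Amotl proteins bind. In HFD mice 3 of 19 genes were called (15.8%, median 0.03). Yap1 had an FPKM of 1.11 and 1.07 in ARM libraries against 0.43 and 0.41 in SM libraries (log2 fold change 1.24, edgeR adjusted p = 0.00704), and Wwtr1, which encodes its paralog TAZ, 2.85 and 2.87 against 1.29 and 1.27 (1.14, edgeR adjusted p = 0.000313). Tead1, the DNA-binding partner of both, had 0.55 and 0.53 against 0.25 and 0.27 (1.12, edgeR adjusted p = 0.00646). The coactivators and their partner were thus about 2-fold higher in HFD ARMs, at low levels. In ND mice 2 of 17 were called (11.8%, median 0.11), both targets of YAP. Ctgf had 0.79 and 0.95 against 0.39 and 0.14 (1.72, edgeR adjusted p = 0.0478). Cyr61 had 13.1 and 20.2 against 10.7 and 10.2 (0.67, edgeR adjusted p = 0.0354). The coactivators and these targets were not called in the same diet. In HFD mice Ctgf and Cyr61 were not called (0.34 and 0.36), and in ND mice Yap1, Wwtr1 and Tead1 were not (0.92, 0.91 and 1.17). Of the actin assembly and podosome list, 1 of 42 was called in HFD mice (2.38%) and 2 of 41 in ND mice (4.88%), with medians of 0.03 and 0.01. They were Cttn, the cortactin of branched actin, in HFD mice (2.17 and 1.9 against 1.31 and 1.17, log2 fold change 0.66, edgeR adjusted p = 0.0409), and in ND mice Tmod2, which caps pointed ends (0.23 and 0.37 against 0.09 and 0.12, 1.51, edgeR adjusted p = 0.0292), and Gsn (199 and 308 against 108 and 129, 1.10, edgeR adjusted p = 0.000743). By edgeR 0 genes of these 5 lists were called lower in either diet, and by DESeq2 also 0. Of the higher calls DESeq2 made fewer: in HFD mice 0 light chain, 1 actin and SRF/MRTF, 2 focal adhesion, 2 Hippo and 0 actin assembly genes, and in ND mice 0, 0, 1, 0 and 1.

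Few of these calls on partner genes held in each fit that left out a library. In HFD mice 3 of 9 did (Fermt2, Parva and Wwtr1). Lims2, Mylk and Cttn were not called without HFD ARM replicate 1, HFD ARM replicate 2 or HFD SM replicate 2, with lowest log2 fold changes of 0.65, 0.38 and 0.56. Cnn3, Tead1 and Yap1 were not called when either HFD ARM replicate was left out, and their lowest values were 0.66, 1.02 and 1.16. Lowest values here are over all 4 fits of the diet, whether or not the gene was called in that fit. In ND mice 1 of 7 held, Gsn. Fermt2 was not called without ND ARM replicate 2 or ND SM replicate 1 (lowest 0.81), Cald1, Bcar1, Cyr61 and Tmod2 also not without ND SM replicate 2 (lowest 0.35, 1.20, 0.31 and 1.16), and Ctgf in none of the 4 fits (lowest 1.16). Without HFD SM replicate 1, by contrast, 3 actin and SRF/MRTF partners and 2 light chain genes were called in HFD mice, and without ND ARM replicate 1 there were 4 genes of the actin assembly list in ND mice.

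Since TEAD factors bind the MCAT motif and SRF the CArG box, both known from genes of the contractile cytoskeleton, promoter windows were searched for them. The windows run from 250 bases before to 50 after each listed start and come from RefSeq (GRCm38.p6). CATTCC was searched on both strands, so that GGAATG also counted, and the CArG box on both strands. Of the 55 members, 45 had at least 1 window (59 windows in all), and Ablim3 and Myo1d were not among them. MCAT was in 17 member windows (28.8%), beside 14.7% of all 32851 windows, and the CArG box in 2 (3.39%), beside 1.63%. For the members called in either diet MCAT was in 7 of 13 windows, of Ablim1, Flnc, Myh15, Myo10 and Myo6, and the CArG box in 0. For the tested members that were not called MCAT was in 8 of 33 windows (24.2%). A match is a run of letters and not a shown binding site.

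The windows of the called genes in which every listed window holds MCAT are printed here, a choice made after the values were seen, with the motif in capitals. They read 5′ to 3′ on the plus strand: Flnc at chr6:29432903-29433202, Myh15 at chr16:49057150-49057449 and Myo6 at chr9:80164784-80165083. Flnc has a further window that overlaps this one and holds the same motif.
Flnc: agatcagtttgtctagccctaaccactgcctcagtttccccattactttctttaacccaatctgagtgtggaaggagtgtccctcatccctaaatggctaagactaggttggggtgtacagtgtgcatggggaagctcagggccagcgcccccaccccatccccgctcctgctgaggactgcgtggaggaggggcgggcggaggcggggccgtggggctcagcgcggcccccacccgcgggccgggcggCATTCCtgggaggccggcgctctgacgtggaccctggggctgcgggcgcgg
Myh15: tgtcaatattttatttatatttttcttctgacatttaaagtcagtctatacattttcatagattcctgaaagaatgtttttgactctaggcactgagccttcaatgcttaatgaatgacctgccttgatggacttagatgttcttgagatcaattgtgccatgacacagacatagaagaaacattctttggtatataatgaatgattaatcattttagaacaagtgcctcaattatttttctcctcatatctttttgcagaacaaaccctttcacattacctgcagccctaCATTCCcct
Myo6: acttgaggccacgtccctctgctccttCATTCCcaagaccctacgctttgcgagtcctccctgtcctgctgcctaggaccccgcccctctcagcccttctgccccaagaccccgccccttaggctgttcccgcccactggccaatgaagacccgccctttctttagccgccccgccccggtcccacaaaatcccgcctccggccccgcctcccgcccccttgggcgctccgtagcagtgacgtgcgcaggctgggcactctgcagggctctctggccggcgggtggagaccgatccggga
In Flnc and Myh15 the motif lies near the 3′ end of the window and in Myo6 near its 5′ end. Flnc was called in ND mice, and Myh15 and Myo6 in HFD mice.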

How the data were processed

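For each diet the authors deposited 1 table that gives, for every gene and library, an expected count, an FPKM and a TPM value. The deposited expected counts are estimated counts and need not be whole. The deposited FPKM and TPM were scaled by the authors for gene length and library total, and TPM was not used here. Per the study's methods, a company sequenced the libraries on Illumina machines. Totals ran from 14508824 to 19040133 counts per library. The build is mm10 in the submitters' processing notes, and the aligner, the counting program and the use of strand are not given in the sources used here, so reads of overlapping or antisense genes cannot be told apart. A further 12 columns of group averages were not used.

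Expected counts were rounded. In R 4.3.3, edgeR 4.0.16 was fitted to the libraries of 1 diet at a time (TMM, filterByExpr, quasi-likelihood test, Benjamini-Hochberg adjustment over all genes tested), after a check on simulated counts. Calls needed an adjusted p under 0.05 together with a fold change above 1.5. The test of the difference between diets came from 1 fit of all 8 libraries over genes in both tables. Replicates differed by more than sampling noise (mean chi-square per gene from 4.22 to 10.1), so each counted as 1 library. TMM CPM values decided whether groups overlapped.

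Members named were those called in either diet, the most abundant of each family by mean FPKM (a gene missing from a table counted as 0 there), in each diet the 5 tested and not called with the largest absolute log2 fold change, and any that passed the difference test. List genes named were those called, up to 6 per list, and the most abundant of each marker list. Other genes named were chosen after their values were seen. Some members are not reported here and enter only the counts, sums and medians. The members and lists were chosen with earlier results of these data known. Promoter windows came from RefSeq, GRCm38.p6, and all 55 members were matched by Entrez ID to gene positions of that build.

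Alternatives tried were DESeq2 1.42.0, RLE size factors, library totals, no filter, 10 counts in every library, an absolute log2 fold change over 0.6 with an unadjusted p under 0.05, limma 3.58.1 on log2(FPKM + 1) and log2(FPKM + 0.1) for genes that reached an FPKM of 1 in 2 or more libraries, 1 fit of all 8 libraries, a replicate block, and each library left out in turn. Tables and figures were made with Python 3.11.15, numpy 2.4.6, pandas 2.3.3 and matplotlib 3.10.9.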

Additional observations from a re-analysis of the deposited data

Results flagged for a closer look

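Tpm3 was the only named member whose libraries moved in opposite directions in the 2 diets. Both HFD ARM libraries lay below both HFD SM libraries (log2 fold change -0.08), and both ND ARM libraries lay above both ND SM libraries (0.06). The test of the difference between diets gave a log2 difference of -0.16 and did not pass (edgeR adjusted p = 0.818).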

How the results depend on the processing

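The number of members called higher in HFD ARMs, 9 by edgeR, was 3 with no filter, 4 with limma on log2(FPKM + 1) and on log2(FPKM + 0.1), 5 in 1 fit of all 8 libraries, 8 with DESeq2, and from 3 to 8 with a library left out. In ND ARMs it was 3, and it was 1 with DESeq2, 5 with no filter, 6 at the threshold of the study's methods, 0 with limma at either pseudocount (2 at an unadjusted p under 0.05), and from 0 to 9 with a library left out. Limma did not test Myh15, Myo1d and Myo6 in HFD mice or Flnc and Myo1d in ND mice, which were under its minimum FPKM. RLE size factors, library totals and 10 counts in every library left both counts as they were. By edgeR and each alternative 0 members were called lower, with from 0 to 2 lower at an unadjusted p under 0.05, and 0 passed the difference test, with from 1 to 7 at an unadjusted p under 0.05. The median log2 fold change over the members ranged from 0.12 to 0.23 in HFD mice and from 0.04 to 0.22 in ND mice with a library left out.

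With the replicate block the count was 9 in HFD ARMs and 6 in ND ARMs, where Ablim1, Ablim3 and Amotl1 were added, and it changed no other call of a named member. The labels give same-numbered libraries only that number and do not say whether they share mice. For same-numbered ARM and SM libraries, deviations from the group means were compared over genes. Their correlation was 0.07 in the HFD libraries and 0.31 in the ND libraries, with only 2 libraries in each group.

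Over the named members, 544 values under the alternatives kept their direction and side of the threshold, 39 lost a call, 15 gained one and 17 changed sign. With a library left out, the log2 fold change in HFD mice ranged from -0.30 (without HFD ARM replicate 1; -0.17 without HFD SM replicate 2) to 0.65 for Myo5b, from -0.12 to 0.06 (without HFD ARM replicate 2; 0.00 without HFD SM replicate 1) for Amotl2, and from -0.18 to 0.03 (without HFD ARM replicate 2) for Myo5a. Without HFD SM replicate 1 it was lowest for Flna, from -0.02 to 0.28, and Myh9, from 0.00 to 0.15. In ND mice it was lowest without ND ARM replicate 2 for Ablim3, from -0.01 to 1.21, Myh9, from -0.02 to 0.18, Myo10, from -0.20 to 0.62, and Myo1e, from -0.01 to 0.54, and for Flna it ranged from -0.21 to 0.05 (without ND SM replicate 1). Pdlim1 in ND mice, at 0.00, turned with RLE size factors (0.00), with 10 counts in every library (0.00) and in 1 fit of all 8 libraries (0.01), and ranged from -0.07 to 0.05 (without ND ARM replicate 1; 0.02 without ND SM replicate 2). The cause was not tested.

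In a fit that leaves out a library, the lone library of its group is assumed to vary like the other group. Myo5b and Myo15 rest on fewer than 20 counts in each library where they are named, so their values carry a large counting error. FPKM levels set side by side between diets come from separate tables.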
